A study of Mus musculus with 16 samples.

Results

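Astrocyte genes were followed in the hippocampus of 16 mice, with or without kainic acid seizures and inhibition of MEK. The set was 10 genes widely used to recognise astrocytes, namely Gfap, Aqp4, Slc1a2, Slc1a3, Aldh1l1, Gja1, S100b, Glul, Aldoc and Sox9. Members were all probe sets of the deposited expression table whose annotated symbol was 1 of these genes, with no filter on intensity. That table held 20372 probe sets, of which 15417 carried a gene name, and 9 of the 10 genes, among 14309 gene names on the table, had exactly 1 probe set each. Gja1, which encodes the gap junction protein connexin 43, had no probe set of its own and was not analysed here. The probe set of Slc1a2 also carried the name 2900019G14Rik, which RefSeq lists as a synonym of Slc1a2.

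All animals were 3-month-old male wildtype C57BL/6 mice. Kainic acid, an agonist of glutamate receptors that triggers seizures, was injected intraperitoneally at 20 mg/kg, and SL327, a MEK inhibitor, at 50 mg/kg. There were 4 untreated mice (labelled 0 h) and 3 mice in each group given vehicle, kainic acid, SL327 or SL327 followed after 1 h by kainic acid, and hippocampi were collected 1 h after the seizures began or at the corresponding time. Kainic acid was dissolved in PBS and SL327 in DMSO mixed with PBS. The vehicle arrays are labelled PBS while the protocol speaks of DMSO/PBS, so SL327 and its solvent cannot be told apart in a comparison with vehicle. For their tissue sections the authors give a longer time after SL327 than after vehicle injection. Time since injection may thus also differ in that comparison. Each Affymetrix mouse exon array carried the RNA of a single hippocampus, and values are log2 intensities.

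Astrocytes clear glutamate from the synaptic cleft, convert it to glutamine and return it to neurons, and they buffer water and potassium at their endfeet around blood vessels. They also store glycogen, release lactate and form a network coupled by gap junctions. After seizures and injury they become reactive over days, a state recognised by a rise of the filament protein Gfap and driven in part by the transcription factor Stat3.

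Of the 9 measured genes 7 had values above the array median in all 16 arrays, whereas Slc1a3 and Sox9 were at or below it in every array. Arrays had similar overall levels, with medians of 7.32 to 7.39, and correlated with the arrays of their own group at a mean r of 0.958 to 0.975. Of 16 activity-regulated genes 15 passed as higher with kainic acid, beside 4.92% of all probe sets, with a median change of 2.13 over the list. With SL327 and kainic acid 11 passed as lower than with kainic acid alone, beside 4.09%. The authors name several of these genes, such as Arc and Npas4, as induced in these arrays, so the list is no independent test. Mouse 2 of the combined group stood apart, with these genes on average 0.14 above the vehicle mean on the log2 scale, against 1.12 and 1.06 in the other two mice. Without it the comparison of the combined treatment with kainic acid alone still gave 0 members, and 819 in place of 1256 probe sets were higher and 492 in place of 630 lower.

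Of the hippocampal neuron markers 10 of 11 had a probe set. With kainic acid 9 of 10 were below vehicle (median -0.17) and 3 passed, all lower, beside 8.41% of all probe sets. With the combined treatment 3 were higher than with kainic acid, beside 8.15% of all probe sets. The log2 of their summed intensity was 11.83 to 11.96 in kainic acid and 12.09 to 12.36 in vehicle arrays, and their part in the Slc1a2 and S100b values was not tested. General neuron markers did not share this direction, with 5 of 10 above and 5 below vehicle after kainic acid (median -0.0035). Of these 10 markers 2 passed as higher and 1 as lower, beside 4.92% and 8.41% of all probe sets. Choroid plexus markers lay above vehicle in the SL327 group for 8 of 8 genes (median 0.48) and below untreated in the vehicle group for 8 of 8 (median fell by 0.43), although none passed the test. The log2 of their summed intensity was 10.06 to 12.91 in untreated, 10.33 to 12.09 in vehicle and 11.95 to 12.61 in SL327 arrays. These groups thus overlapped. The part of choroid plexus in the results below was not tested.

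Upstream sequences are shown for the 3 genes that passed a test against vehicle, Slc1a2, S100b and Glul. Each is the 250 bases before the annotated start in RefSeq on build GRCm38.p6, at chr2:102706188-102706437, chr10:76253586-76253835 and chr1:153899679-153899928, all on the plus strand. Capitals mark CCAAT boxes on either strand (CCAAT or ATTGG).
Slc1a2: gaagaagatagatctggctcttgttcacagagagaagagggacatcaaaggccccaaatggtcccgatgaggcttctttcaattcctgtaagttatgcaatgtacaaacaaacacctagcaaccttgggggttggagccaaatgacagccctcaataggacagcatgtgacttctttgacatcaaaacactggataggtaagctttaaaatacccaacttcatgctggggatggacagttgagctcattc
S100b: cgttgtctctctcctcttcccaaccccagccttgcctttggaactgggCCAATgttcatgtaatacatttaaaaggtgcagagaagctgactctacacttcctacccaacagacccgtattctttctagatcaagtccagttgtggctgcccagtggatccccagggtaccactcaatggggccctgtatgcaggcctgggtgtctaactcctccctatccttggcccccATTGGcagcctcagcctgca
Glul: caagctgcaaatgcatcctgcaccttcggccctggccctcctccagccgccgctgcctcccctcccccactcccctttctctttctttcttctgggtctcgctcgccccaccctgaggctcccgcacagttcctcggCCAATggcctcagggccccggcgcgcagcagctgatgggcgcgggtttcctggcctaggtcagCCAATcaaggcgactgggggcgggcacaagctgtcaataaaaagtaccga
CCAAT boxes occurred at 202 and 20 bases before the start of S100b and at 113 and 50 bases before that of Glul, and Slc1a2 had none in this window. Aldh1l1 (103 and 63 bases before the start) and Slc1a3 (233, 216 and 72 bases), which passed no test against vehicle, also had such boxes. A CCAAT box is common, with 37.4% of 32851 promoter windows of 300 bases (250 before and 50 after the start) holding one. Windows were found for 8 of the 10 genes, and besides CCAAT both strands were searched for the STAT motif TTCCNGGAA (1.15% of all windows), the AP-1 motif TGANTCA (7.81%) and the cAMP response element TGACGTCA (1.79%). No member window held the last of these, and only that of Gja1 held an AP-1 motif, 19 bases before the start. The STAT motif was present in the windows of Gfap and Aldoc, 83 bases before the start in the latter. In Gfap it began 2 bases before the start, and the surrounding stretch on the minus strand at chr11:102897184-102897212 is shown with the motif in capitals because Stat3 itself responded to kainic acid.
Gfap: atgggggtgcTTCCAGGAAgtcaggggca

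Kainic acid changed 2 of the 9 measured astrocyte genes past the test within 1 h. Slc1a2 and S100b were lower than with vehicle, by 0.18 and 0.26 on the log2 scale, and no member passed as higher. The members thus gave 0 of 9 higher and 2 of 9 lower (22.2%), beside 4.92% of all annotated probe sets higher and 8.41% lower. Arrays of the kainic acid and vehicle groups did not overlap for 4 of 9 members (44.4%), against 34.7% of all probe sets. The median change of the 9 genes, which fell by 0.02, was close to that of all probe sets, which fell by 0.03. No 95% interval of a member reached beyond a 1.33-fold change in either direction. In whole tissue, fewer astrocytes, less RNA per astrocyte and a change in other cells that make these genes cannot be told apart.

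**Figure D1:**
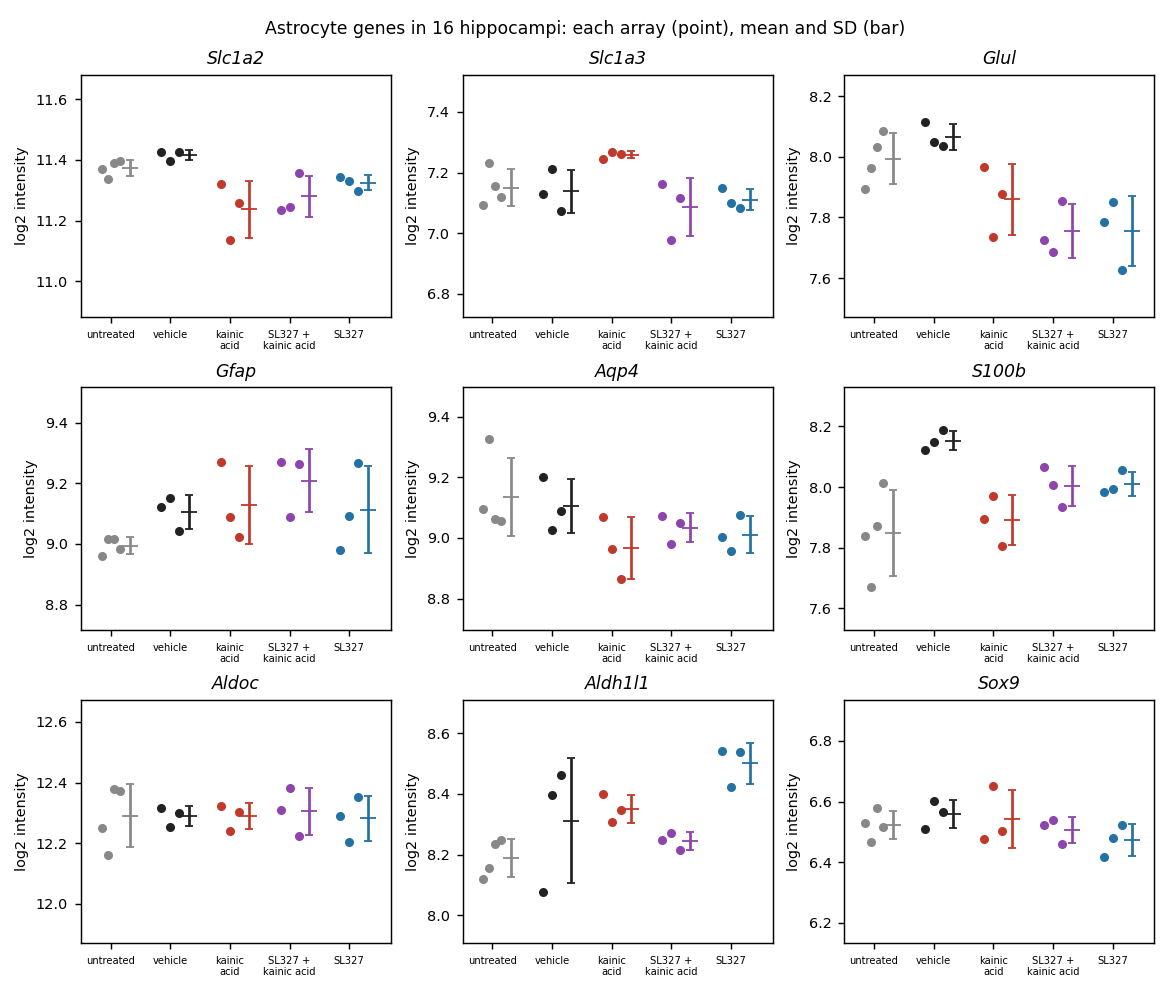
Log2 intensity (vertical axis) of the 9 measured astrocyte genes in every array (points) of the 5 groups (horizontal axis), with the group mean and SD beside the points and a separate vertical scale for each gene. Slc1a2, S100b and Glul were highest in the vehicle group, and group means of Aldoc spanned only 0.02.

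Glutamate uptake by astrocytes relies on Slc1a2 (GLT-1) and Slc1a3 (GLAST), and Glul, glutamine synthetase, converts the glutamate taken up to glutamine. Slc1a2 measured 11.43, 11.40 and 11.42 in the vehicle mice and 11.32, 11.14 and 11.26 after kainic acid. All 3 kainic acid arrays were below all 3 vehicle arrays and also below the untreated ones, which ranged from 11.34 to 11.40. The group mean was 11.42 ± 0.02 (SD, n = 3) with vehicle and 11.24 ± 0.09 (SD, n = 3) with kainic acid, a ratio of 0.883 (log2 change -0.18, SE 0.05, 95% interval -0.29 to -0.07, adjusted p = 0.0281). Against the untreated mice the change was -0.14 (adjusted p = 0.0483). With SL327 and kainic acid Slc1a2 was 11.23, 11.25 and 11.36, and with SL327 alone 11.35, 11.33 and 11.30. These groups also lay below vehicle without overlap, but their differences of -0.14 (adjusted p = 0.286) and -0.09 (adjusted p = 0.363) did not pass the test. The inhibitor made no detectable difference to the kainic acid value of Slc1a2 (0.04, 95% interval -0.06 to 0.15).

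The second transporter did not follow Slc1a2. Slc1a3 had values of 7.25, 7.27 and 7.26 after kainic acid, 7.13, 7.21 and 7.07 with vehicle, and 7.16, 6.98 and 7.12 with SL327 and kainic acid. The kainic acid arrays thus lay above those of both other groups. Neither difference passed, at 0.12 against vehicle (adjusted p = 0.173) and -0.17 for the combined treatment against kainic acid alone (adjusted p = 0.0551). The latter passed when arrays were centred on their medians (-0.20, adjusted p = 0.0277).

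Glul measured lowest in the groups that had received a drug. It measured 8.12, 8.05 and 8.04 with vehicle, 7.97, 7.74 and 7.88 with kainic acid, 7.73, 7.69 and 7.86 with the combined treatment, and 7.79, 7.85 and 7.63 with SL327 alone. None of these 9 drug-treated arrays reached the vehicle range, whereas the untreated arrays (7.89 to 8.09) overlapped with those of kainic acid alone. Only the change with SL327 alone passed the test, at a ratio of 0.806 (log2 change -0.31, SE 0.07, 95% interval -0.47 to -0.15, adjusted p = 0.0387). The combined treatment gave a similar difference of -0.31 (adjusted p = 0.0861) and kainic acid alone -0.21 (adjusted p = 0.0831). All 3 comparisons share the vehicle arrays. Against untreated mice the change with SL327 was -0.24 and no longer passed (adjusted p = 0.087).

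**Figure D2:**
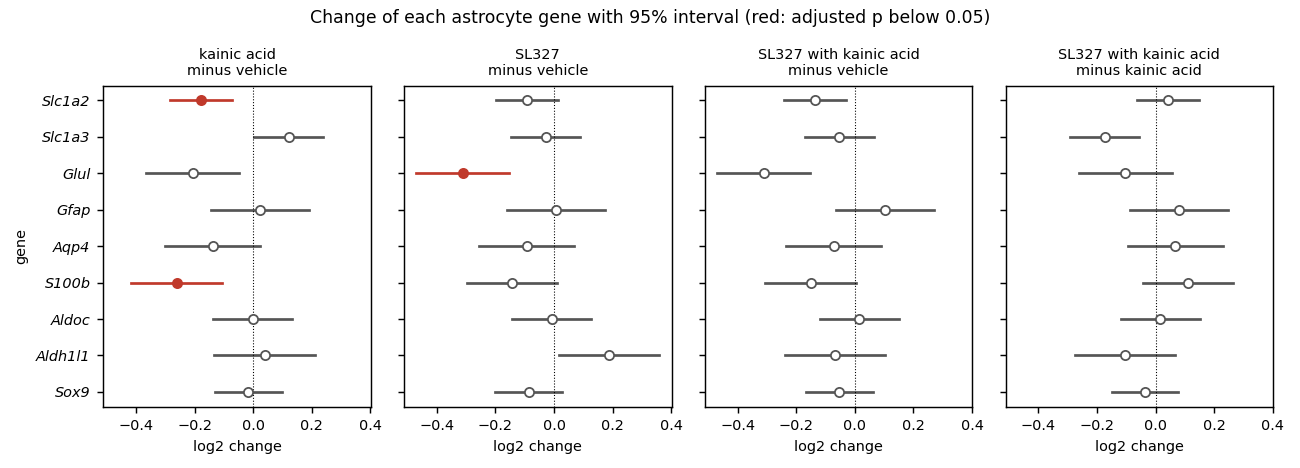
Log2 change (horizontal axis) of each astrocyte gene (vertical axis) in 4 comparisons, with points for the estimate, lines for its 95% interval and red for an adjusted p below 0.05. Slc1a2 and S100b passed with kainic acid and Glul with SL327, and the 6 other genes passed in none of the 4 panels.

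S100b, a calcium-binding protein of astrocytes that mature oligodendrocytes also make, was lower after kainic acid than with vehicle but not than in untreated mice. Vehicle arrays had 8.12, 8.15 and 8.19 and kainic acid arrays 7.90, 7.97 and 7.81, without overlap, a ratio of 0.834 (log2 change -0.26, SE 0.07, 95% interval -0.42 to -0.11, adjusted p = 0.0268). The untreated arrays, at 7.84, 7.67, 7.87 and 8.01, were all below the vehicle arrays as well. Against them the kainic acid value was higher by 0.0425 (adjusted p = 0.691), and vehicle minus untreated was 0.30 (unadjusted p = 0.000475 in the limma fit, adjusted p = 0.834). S100b was 8.07, 8.01 and 7.93 with the combined treatment and 7.98, 7.99 and 8.06 with SL327 alone, all below the vehicle arrays and only the former overlapping with kainic acid. Oligodendrocyte markers lay below vehicle for 7 of 9 genes after kainic acid (median -0.10) and for 9 of 9 with SL327 (median -0.13), and above untreated in the vehicle group for 8 of 9 (median 0.05), none of them passing. The log2 of their summed intensity was 12.17 to 12.52 in untreated, 12.39 to 12.52 in vehicle and 12.30 to 12.45 in kainic acid arrays, and their part in the S100b values was not tested.

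Both calls with kainic acid were sensitive to single arrays and to scaling. Slc1a2 no longer passed without vehicle mouse 1, 2 or 3 or kainic acid mouse 2 or 3 (adjusted p 0.0622 to 0.137), nor S100b without vehicle mouse 1, 2 or 3 or kainic acid mouse 1 or 3 (adjusted p 0.0505 to 0.114). With arrays centred on their medians the adjusted p was 0.0676 for Slc1a2 and 0.0538 for S100b. Glul lost its call with SL327 when any vehicle or SL327 mouse or kainic acid mouse 3 was left out (adjusted p 0.0509 to 0.164).

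Structural and endfoot proteins showed no change past the test. Gfap, the intermediate filament of astrocytes, was 9.12, 9.15 and 9.04 with vehicle and 9.27, 9.09 and 9.02 with kainic acid. The groups overlapped, with a change of 0.02 whose 95% interval ran from -0.14 to 0.19. With the combined treatment Gfap reached its highest group mean, 9.21 ± 0.10 (SD, n = 3), and the untreated mice had the lowest, 8.99 ± 0.03 (SD, n = 4), just below the vehicle arrays without overlap. Neither SL327 with kainic acid minus vehicle (0.10, adjusted p = 0.698) nor vehicle minus untreated (0.11, adjusted p = 0.836) passed. Aqp4, the water channel of the endfeet, was 9.20, 9.02 and 9.09 with vehicle and 9.07, 8.96 and 8.87 with kainic acid, a change of -0.14 (95% interval -0.30 to 0.02, adjusted p = 0.263). Its groups overlapped, and untreated mouse 2 stood apart at 9.33 from 9.05 to 9.09 in the others.

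Among the metabolic enzymes Aldoc, the glycolytic aldolase of astrocytes, had the smallest span of group means of the 9 members. They lay between 12.28 and 12.30, a difference of 0.02 beside a within-group SD of 0.07, and its change with kainic acid was bounded by -0.14 and 0.13. Aldh1l1, a folate-metabolising dehydrogenase, passed only with SL327 against untreated mice, an alternative comparison. It measured 8.54, 8.42 and 8.54 with SL327 alone and 8.25, 8.27 and 8.21 with SL327 and kainic acid, without overlap. This kainic acid difference of -0.26, with SL327 in both groups, had an unadjusted p of 0.00631 in the limma fit and an adjusted p of 0.387. Vehicle arrays were spread from 8.08 to 8.46, so that the SL327 change of 0.19 over vehicle did not pass (adjusted p = 0.229), while against the untreated mice (8.12 to 8.25) it was 0.31 (adjusted p = 0.0473). Sox9, a transcription factor that specifies astrocytes, ranged from 6.42 to 6.65 over all arrays, and its group means spanned 0.09 beside a within-group SD of 0.06.

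The order of group means differed between genes. Vehicle ranked first for Slc1a2, S100b, Glul and Sox9, kainic acid for Slc1a3, the combined treatment for Gfap and Aldoc, SL327 for Aldh1l1 and untreated for Aqp4. Of the 36 steps between neighbouring groups in these orders only 7 exceeded the SD within groups, which ran from 0.05 for Slc1a2 to 0.10 for Aldh1l1. They were the steps from vehicle to untreated for Gfap, from kainic acid to untreated for Slc1a3, from SL327 to kainic acid for Aldh1l1, from vehicle to SL327 and from the combined treatment to kainic acid for S100b, and from untreated to kainic acid and on to the combined treatment for Glul. Aqp4, Slc1a2, Aldoc and Sox9 had none.

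Beyond kainic acid the members passed rarely. SL327 minus vehicle gave 0 higher and 1 lower of 9 (11.1%), beside 2.57% of all probe sets higher and 0.402% lower, and 3 members without overlap (33.3%) against 27.7%. The combined treatment minus vehicle gave 0 of 9, beside 0.383% higher and 0.0973% lower, with 3 members without overlap (33.3%) against 19.8%. In both comparisons these 3 were Slc1a2, S100b and Glul, all lower, and the vehicle arrays are common to both.

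For the effect of the inhibitor on seizure responses, the combined treatment minus kainic acid gave 0 of 9 members, beside 8.15% of all probe sets higher and 4.09% lower. Slc1a3 and Aldh1l1 did not overlap there (22.2% of members, against 31.7% of all probe sets), both lower. With SL327 present in both groups, kainic acid changed 0% of all probe sets (0 of 15417 in limma, 1381 at an unadjusted p below 0.05, smallest adjusted p 0.0561; 21 higher and 6 lower without combined mouse 2) and no member, with Aldh1l1 alone not overlapping (11.1%, against 15.3%). The interaction, which is the kainic acid response with the inhibitor minus that without, gave 0 members, beside 0.843% of probe sets higher and 1.9% lower, and was above 0 for 7 of 9 genes. Vehicle minus untreated likewise gave 0% of all probe sets (843 at an unadjusted p below 0.05 in limma, smallest adjusted p 0.719), and Gfap and S100b, both higher with vehicle, did not overlap (22.2%, against 6.14%).

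Slc1a2 and Glul varied together over the arrays. Their Pearson r was 0.765 (permutation p = 0.00044, adjusted p = 0.0158) and Spearman's rho 0.841 (permutation p = 0.0001, adjusted p = 0.0036) over 16 arrays, with p adjusted over all 36 pairs of members. Without the 2 arrays farthest from the median of Slc1a2 the r was 0.777, and after each group's mean was removed it was 0.794. The permutations moved arrays freely between groups, and the r without group means was not tested. No other pair passed, with the next highest r at 0.433 (Aqp4 and Slc1a2) and the lowest at -0.472. Other pairs also had a large r once group means were removed, likewise not tested. It was -0.703 for Slc1a2 and Sox9, -0.622 for Glul and Sox9 and 0.598 for S100b and Aldoc. RNA quality and dissection are shared by genes of 1 array and their part in the relation of Slc1a2 and Glul was not tested.

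**Figure D3:**
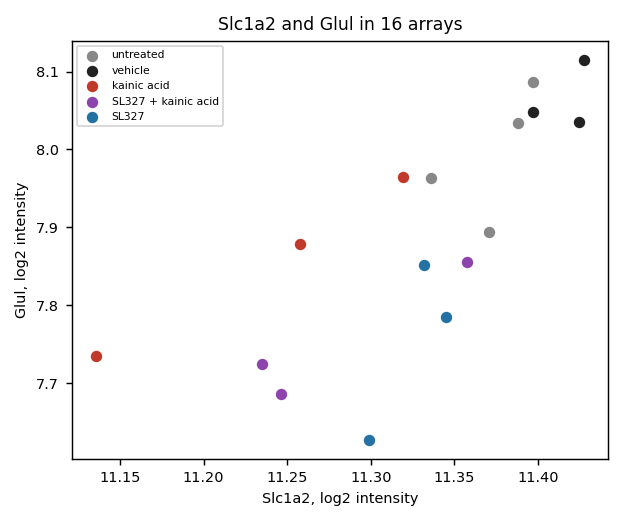
Log2 intensity of Slc1a2 (horizontal axis) and Glul (vertical axis) in each of the 16 arrays, coloured by group. Vehicle arrays lie at the upper right, and arrays high in one gene were high in the other (r of 0.765).

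Averaged over the 9 members, each centred on its own mean, the profile across the 16 arrays was most like that of Pcbd2 (r of 0.76, rho 0.812), Lrp4 (0.755, rho 0.759) and Tnfaip8l3 (0.73, rho 0.765) among 12947 other genes. These values describe likeness and were not tested.

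A wider list of 46 astrocyte genes, of which 43 were measured, behaved like the members in its median (-0.02 with kainic acid). It contained 4 genes that passed as higher and none that passed as lower (beside the 4.92% and 8.41% of all probe sets). The 4 genes were Dio2, which activates thyroid hormone, the metal-binding metallothioneins Mt1 and Mt2, and Agt, the precursor of angiotensin. Dio2 was 7.74, 7.78 and 7.89 with vehicle and 8.34, 8.48 and 8.46 with kainic acid, a 1.54-fold rise (log2 change 0.62, SE 0.07, adjusted p = 8.79e-05). With SL327 and kainic acid it was 7.86, 7.97 and 7.90, below all kainic acid arrays (-0.52, adjusted p = 0.000574). The interaction was -0.71 (adjusted p = 0.0017).

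Mt2 rose with every drug treatment. Arrays had 9.32, 9.29 and 9.15 with vehicle, 10.06, 10.21 and 10.04 with kainic acid, 9.97, 9.76 and 9.94 with both and 9.87, 10.07 and 9.90 with SL327 alone, with none of the drug-treated arrays in the range of vehicle or of untreated mice (9.08 to 9.63). The changes over vehicle were 0.85 (adjusted p = 0.000527), 0.64 (adjusted p = 0.0389) and 0.69 (adjusted p = 0.0162). When SL327 was present in both groups, kainic acid changed Mt2 by only -0.06, and the interaction was -0.90 (adjusted p = 0.0125). The change with both treatments lost its call without vehicle mouse 1, 2 or 3, untreated mouse 3, kainic acid mouse 3, mouse 1 or 3 of the combined group or SL327 mouse 3 (lowest change 0.58), with untreated mice as control (0.48) and with a fit to the compared groups only, and that with SL327 alone without vehicle mouse 1 or 3 or SL327 mouse 3. Mt1 rose by 0.44 with kainic acid (adjusted p = 0.0126), while its difference of 0.33 with SL327 did not pass (adjusted p = 0.0981). Mt1 and Mt2 are close in sequence, and signal shared between their probes was not tested.

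Agt was 8.74, 8.88 and 8.91 with vehicle, 9.08, 9.29 and 9.40 with kainic acid, 8.60, 9.10 and 8.74 with both and 9.14, 9.07 and 9.19 with SL327 alone. Kainic acid arrays were above vehicle (0.42, adjusted p = 0.0271), and the combined treatment was lower than kainic acid (-0.45, adjusted p = 0.0215) with 1 array of overlap. The interaction was -0.73 (adjusted p = 0.0278). These calls were each lost when certain single arrays were removed, the kainic acid change without vehicle mouse 1 or 2 or kainic acid mouse 2 or 3 (lowest change 0.34), the inhibitor difference without kainic acid mouse 2 or 3 or combined mouse 1 or 3, and the interaction without any of these 6 or SL327 mouse 1 or 3.

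**Figure D4:**
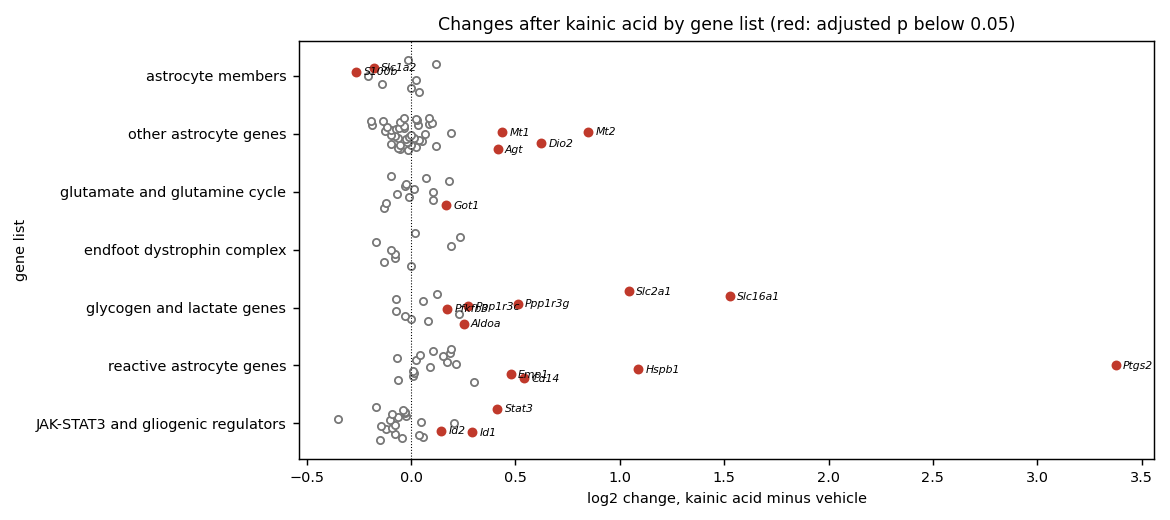
Log2 change with kainic acid over vehicle (horizontal axis) of every measured gene in 7 lists (vertical axis), where red points passed at an adjusted p below 0.05. The 9 members and most wider astrocyte genes lie near 0, and genes of glycogen and lactate metabolism include Slc2a1 at 1.04 and Slc16a1 at 1.53.

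Genes of glycogen, glucose and lactate handling rose in part with kainic acid. Of 14 measured genes 6 passed as higher and none as lower, beside 4.92% of all probe sets higher. With the combined treatment 3 of 14 passed as lower than with kainic acid, beside 4.09%. The 6 became 3 without vehicle mouse 2 or kainic acid mouse 2, and 3 to 6 over all fits that left out 1 array. Slc16a1, the lactate transporter MCT1, was 8.05, 8.19 and 8.10 with vehicle, 9.53, 9.95 and 9.45 with kainic acid and 8.45, 8.13 and 8.34 with both. This was a 2.88-fold rise (log2 change 1.53, SE 0.12, adjusted p = 2.48e-06) and a fall by 1.34 with the inhibitor (adjusted p = 1.48e-05). Slc2a1, the glucose transporter GLUT1, was 9.37, 9.29 and 9.26 with vehicle, 10.20, 10.52 and 10.32 with kainic acid and 9.52, 9.59 and 9.48 with both. It rose 2.06-fold (log2 change 1.04, SE 0.07, adjusted p = 7.29e-07), and the combined treatment was 0.81 lower than kainic acid on the log2 scale (-0.81, adjusted p = 9.42e-06). The interactions were -1.33 (adjusted p = 0.000759) and -1.02 (adjusted p = 8.14e-05).

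Both transporters are also made by brain endothelial cells. Of 8 measured endothelial markers none passed as higher and 1 as lower with kainic acid, beside 4.92% and 8.41% of all probe sets. The log2 of their summed intensity was 10.50 to 10.62 in kainic acid and 10.61 to 10.69 in vehicle arrays. The part of endothelial cells in the changes of both transporters was not tested. Ppp1r3g and Ppp1r3c, subunits that direct protein phosphatase 1 to glycogen, rose by 0.51 (adjusted p = 0.00319) and 0.27 (adjusted p = 0.019). Ppp1r3g was lower with the inhibitor (-0.40, adjusted p = 0.0147), a call lost without kainic acid mouse 3 or combined mouse 2 (smallest difference -0.33), and the rise of Ppp1r3c was lost without vehicle mouse 2 or kainic acid mouse 2 (lowest 0.26).

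**Figure D5:**
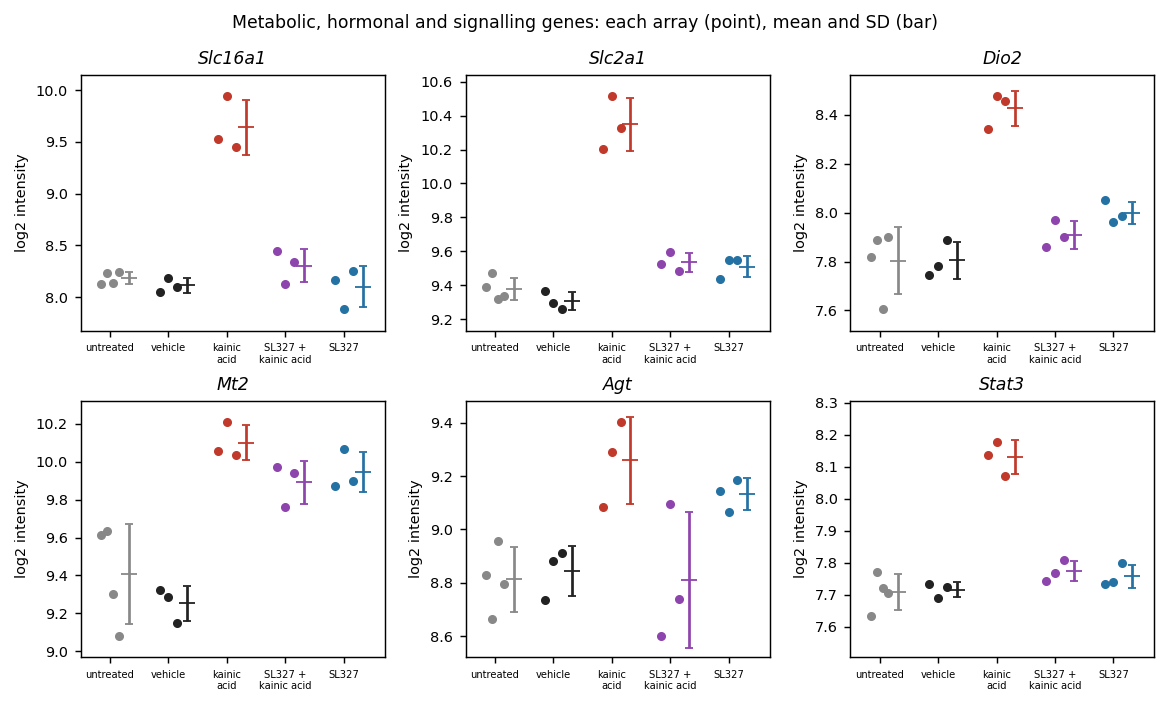
Log2 intensity (vertical axis) of 6 genes from the wider lists in every array (points) of the 5 groups (horizontal axis), with group mean and SD and a separate scale for each gene. The kainic acid arrays of Slc16a1, Slc2a1, Dio2 and Stat3 lay above all other arrays, Mt2 was high in all 3 drug groups, and Agt of the combined group overlapped with kainic acid in 1 array.

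Few genes of the glutamate cycle and the endfoot complex passed the test. Of 13 glutamate and glutamine cycle genes 1 passed as higher with kainic acid, beside 4.92% of all probe sets. This was Got1, an aspartate aminotransferase, which went from 11.96 ± 0.03 (SD, n = 3) to 12.13 ± 0.07 (SD, n = 3; adjusted p = 0.04), and it passed in 16 of 28 alternative fits. Of 9 genes of the dystrophin complex that anchors Aqp4 none passed with kainic acid, although 1 was higher with centred arrays or a fit to the compared groups only and 2 with untreated mice or pooled controls in place of vehicle. Sntb2, a syntrophin of that complex, was lower with the combined treatment than with kainic acid (-0.33, adjusted p = 0.0251) and passed in 20 of 26 alternative fits, not including that without combined mouse 2 (-0.25, adjusted p = 0.0989).

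Reactive astrocyte genes had 19 of 37 members on the table, of which 4 passed as higher with kainic acid (beside 4.92% of all probe sets). The same 4 passed as lower with the combined treatment than with kainic acid (beside 4.09%). These were Ptgs2 (3.37, adjusted p = 0.000104), a prostaglandin synthase that neurons also induce, Hspb1 (1.09, adjusted p = 0.00128), a small heat shock protein, Cd14 (0.54, adjusted p = 0.000224), a receptor mainly of myeloid cells, and Emp1 (0.48, adjusted p = 0.00115), a membrane protein. In the comparison with the combined treatment they were lower, with log2 differences from -2.58 (Ptgs2) to -0.34 (Cd14), and that of Hspb1 passed in 20 of 25 alternative fits. Ptgs2 was 8.60, 6.55 and 8.59 with the combined treatment, and without mouse 2 its difference was -1.91 (adjusted p = 0.000103), while that of Hspb1 no longer passed (-0.65, adjusted p = 0.0695). Microglia markers did not pass in either direction (0 of 10). Only 1 of the 4 remained testable after the intensity filter of the methods. Against untreated mice 8 genes of the list passed as higher, while all alternatives besides leaving out arrays gave 626 to 1029 probe sets higher. Vehicle arrays were below their medians for Hspb1 (5.74 to 6.42), Cd14 (6.48 to 6.62) and Emp1 (6.68 to 6.72). An intensity filter on the table would favour such low genes where they rise, and this was not tested.

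Of 23 measured regulators of the JAK-STAT pathway and of gliogenesis, 3 passed as higher with kainic acid and 0 as lower. This stood beside 4.92% and 8.41% of all probe sets. Most of the list went the other way, with 16 genes below vehicle and 7 above (median -0.04, against -0.03 over all probe sets). Among the 3 that passed, Stat3 rose most clearly. It was 7.73, 7.69 and 7.72 with vehicle, 8.14, 8.18 and 8.07 with kainic acid, 7.74, 7.77 and 7.81 with both and 7.73, 7.74 and 7.80 with SL327, so that the kainic acid arrays lay above all others. The rise was 0.41 (SE 0.04, adjusted p = 4.18e-05), the difference with the inhibitor -0.36 (adjusted p = 0.000241) and the interaction -0.40 (adjusted p = 0.00353). Gfap, whose start site bears the STAT motif shown above, had no change past the test in the same arrays. Id1 and Id2, inhibitors of helix-loop-helix factors, also rose with kainic acid, by 0.29 (adjusted p = 0.0406) and 0.14 (adjusted p = 0.0268), and passed in 19 and 21 of 28 alternative fits.

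Among the same regulators, Sox2, a factor of neural progenitors and astrocytes, was 0.30 lower with SL327 than with vehicle (-0.30, adjusted p = 0.0215) and lower with the combined treatment than with kainic acid (-0.21, adjusted p = 0.034). Jak2, the kinase upstream of Stat3, was lower with the combined treatment than with kainic acid (-0.27, adjusted p = 0.0464), and Nfib, a gliogenic factor, was higher (0.58, adjusted p = 0.0247). Over the alternatives, the Sox2 calls passed in 21 of 28 and 19 of 26 fits, Jak2 in 12 of 26 and Nfib in 21 of 26. Without combined mouse 2 the differences of Sox2, Jak2 and Nfib from kainic acid no longer passed (adjusted p 0.0824, 0.0881 and 0.0824).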

How the data were processed

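Hippocampal RNA of 16 mice was hybridized to exon arrays. The authors deposited log2 values that they had normalised with RMA in the package oligo, whose version is not given in the sources used here; these were used as deposited. Gene names came from the platform annotation (14704 probe sets with 1 gene, 713 with several, 4955 with none), updated through RefSeq. The table may already carry an intensity filter, as the third-highest array of every probe set was at least 6.42, so genes without a probe set were not analysed here. Groups followed the labels, each array being 1 animal.

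Group means of the 5 treatments were fitted with limma 3.58.1 in R 4.3.3 (11 residual and 2.89 prior degrees of freedom) over 15417 annotated probe sets. Tests were two-sided, with Benjamini-Hochberg adjustment and a threshold of 0.05. The filter of the methods (above the median in at least 3 arrays, 9308 probe sets) was an alternative, since members were to be taken without it. Pairs of members were compared with 100000 permutations. The fit was tested on simulated data. Members and lists were chosen with earlier results of these data known. Up to 4 genes per list and comparison were named, by smallest adjusted p, and 3 genes by likeness.

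Alternatives were other filters, probe sets without a name, centring, quantile normalization, other variance models, other controls, the replicate number as a block and each array left out. The numbers did not pair the samples. Probe intensities can saturate or sit near background, which compresses changes, and the number of arrays limits the precision.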

Additional observations from a re-analysis of the deposited data

Results flagged for a closer look

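The 4 untreated arrays were screened for 29 probe sets, those of the 9 members and of the other genes named. In 3 of the 29 1 array stood far from the others, which chance gives in about 1 of 20 groups. Aqp4 was 9.33 in untreated mouse 2 against 9.05 to 9.09 in the others. Emp1 was 6.72 in untreated mouse 1 against 6.78 to 6.79, and Sox2 was 9.41 in the same array against 9.55 to 9.57.

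For 6 genes the response to kainic acid differed with and without SL327 by the interaction term in limma. The difference was -0.71 for Dio2, -0.90 for Mt2, -0.73 for Agt, -1.02 for Slc2a1, -1.33 for Slc16a1 and -0.40 for Stat3. These 6 genes were picked from the wider lists because they passed, so their adjusted p values (8.14e-05 to 0.0278) are below the threshold by selection. Of all probe sets 0.843% passed as higher and 1.9% as lower for this term. None of the 9 measured members had such a difference, the closest being Aldh1l1 at -0.29 (adjusted p = 0.193).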

How the results depend on the processing

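The 2 members lower with kainic acid became 0 with arrays centred on their medians or quantile normalised, and 1 with untreated mice in place of vehicle, with both controls pooled, with a fit to the compared groups only, or with the Slc1a2 probe set left out, an alternative chosen after seeing the data. S100b changed sign with untreated mice as control (0.0425). Leaving out 1 array gave 0 to 2. The 1 member lower with SL327 became 0 with unnamed probe sets included, with a fit to the compared groups only and with the replicate block (Glul, adjusted p = 0.0751), and 0 to 1 when 1 array was left out. With untreated mice in place of vehicle Glul also lost its call (-0.24, adjusted p = 0.087), and the comparison with SL327 gave 1 member higher instead, Aldh1l1 (0.31, adjusted p = 0.0473). SL327 with kainic acid minus vehicle went from 0 to 1 (Glul) with array weights or pooled controls. The combined treatment minus kainic acid went from 0 to 1 (Slc1a3) with centring or quantile normalization, and 0 to 1 when 1 array was left out (untreated mouse 2 or combined mouse 1). The other 3 comparisons kept 0 members in every alternative. Averaging probe sets of a gene was not run, as each member had 1.

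Once the mean of its own group was removed from each array, same-numbered arrays of different groups correlated at -0.17 to 0.15 over 18 pairs. Only 1 pair was over 0.1, so the replicate block uses a shared number only. Among the members the block changed no call besides that of Glul. Over all probe sets the alternatives other than leaving out arrays gave 856 to 2711 lower with kainic acid (1296), 154 to 1146 higher and 19 to 309 lower with SL327 (396 and 62), 1 to 212 higher and 1 to 104 lower with both against vehicle (59 and 15), 487 to 1678 higher and 351 to 759 lower with both against kainic acid (1256 and 630), and 36 to 455 higher and 184 to 518 lower for the interaction (130 and 293). Leaving out 1 array gave 527 to 1712 lower with kainic acid, 19 to 564 higher and 4 to 95 lower with SL327, 11 to 110 higher and 2 to 30 lower with both against vehicle, 497 to 1671 higher and 378 to 729 lower with both against kainic acid, 39 to 251 higher and 175 to 391 lower for the interaction, and 0 to 21 higher and 0 to 6 lower for kainic acid under SL327. Centring moved the share of higher calls from 36.9% to 47.9% with kainic acid, from 86.5% to 72.8% with SL327 and from 66.6% to 52.7% for both against kainic acid. The causes were not tested. Dio2, Slc16a1, Slc2a1 and Stat3 passed in every alternative in the comparisons named for them.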
